A study of Mus musculus with 8 samples.

Results

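The expression of 10 SR splicing factor genes was followed in pre-B cells of control mice and of mice with conditional deletion of Upf1, which encodes a helicase required for nonsense-mediated mRNA decay (NMD). These genes, Srsf1, Srsf2, Srsf3, Srsf4, Srsf5, Srsf6, Srsf7, Srsf9, Srsf10 and Srsf11, were taken by name because the family is known for poison exons, and were matched by RefSeq symbol to the Entrez identifiers of a count table of 27179 genes. All 10 were found, and all 10 were among the 17700 genes that passed the expression filter. RNA had been sequenced in 8 libraries, 2 for each of 4 groups, from early large pre-B (early LPre-B) and small pre-B (sPre-B) cells sorted out of bone marrow. Control (Ctrl) mice were Flox/Flox at Upf1, +/+ at Mb1 and B1-8hi/+ at Igh, and conditional knockout (cKO) mice differed from them in being Cre/+ at Mb1. Every animal therefore carried the floxed Upf1 alleles and the already rearranged heavy chain gene B1-8hi. The controls had no Cre, which in the cKO mice was expressed from the Mb1 (Cd79a) locus and thus in B lineage cells, so loss of Upf1 and presence of Cre cannot be told apart. The mice were males and females aged 8 to 16 weeks on a C57BL/6 background, and early LPre-B cells were gated as large CD43+ CD2- cells and sPre-B cells as small CD25+ CD2+ cells.

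SR proteins bind exonic enhancers through RNA recognition motifs and recruit the early spliceosome through domains rich in arginine and serine. Many of their genes hold a poison exon, a stretch that is skipped in the coding mRNA and that brings in a premature stop codon when it is kept. A ribosome that stops ahead of a remaining exon junction complex recruits UPF1, and the transcript is degraded, so that SR genes can limit their own output by splicing themselves into an NMD target. In normal development the heavy chain gene completes its rearrangement in early LPre-B cells, ahead of the pre-B cell receptor, while the later sPre-B cells are mostly resting and rearrange their light chain genes.

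In the GENCODE M21 annotation of mm10 (GRCm38), 9 of the 10 genes had at least 1 transcript typed as an NMD target, the exception being Srsf10. For comparison, 27.2% of the 14255 other protein-coding genes tested had such a transcript. In Srsf3, Srsf4, Srsf6, Srsf7, Srsf9 and Srsf11 the premature stop lay in an extra exon inside the coding region, and in Srsf5 it lay in an upstream extension of exon 3 of the coding transcript. In Srsf1 the exon with the stop lay within the last exon of the longest coding transcript, and in Srsf2 the NMD transcript used the normal stop and spliced further downstream. The stretches below run from the first base of the poison exon to its stop codon, which is in capitals, because they are what separates an NMD transcript from the coding mRNA of the same gene. They were read from the GENCODE transcripts, and each is written 5′ to 3′ on the strand of its gene.
Srsf3: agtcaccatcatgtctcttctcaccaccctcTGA
Srsf11: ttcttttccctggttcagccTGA
Srsf4: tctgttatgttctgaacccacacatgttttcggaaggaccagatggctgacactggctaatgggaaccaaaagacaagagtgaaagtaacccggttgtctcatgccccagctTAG
Srsf7: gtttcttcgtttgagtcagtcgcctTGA
Srsf9: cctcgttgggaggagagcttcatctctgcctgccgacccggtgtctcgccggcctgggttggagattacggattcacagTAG
Srsf5: ggcttctctgtaTAG

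The exon of Srsf3 is at chr17:29039454-29039909 on the plus strand, is 456 bases long and lies between exons 3 and 4 of the coding transcript. It had 34 bases to the end of its TGA stop, and 3 exon junctions followed, the last of them 548 bases downstream of the stop. The Srsf7 exon is at chr17:80204622-80205081 on the minus strand, with 460 bases, and also lies between coding exons 3 and 4, with 28 bases to the end of its stop. The Srsf11 exon, at chr3:158024123-158024231 on the minus strand, had 109 bases, with 23 to the end of its stop, again between exons 3 and 4. Srsf11 had another annotated poison exon of 117 bases at chr3:158023243-158023359. The Srsf4 exon at chr4:131884276-131884482, plus strand, had 207 bases, and that of Srsf9 at chr5:115328347-115328704, plus strand, had 358. Both lay between exons 1 and 2. The Srsf5 extension covered the start of an exon of 266 bases at chr12:80947116-80947381 on the plus strand. In Srsf6 an exon of 268 bases at chr2:162932815-162933082, plus strand, followed exon 2. Gene-level counts add up reads of the coding and the poison-exon transcripts, so the values that follow cannot say which of them changed.

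Libraries held 68516857 to 160426338 counts. The 10 genes took between 0.200% and 0.411% of them and had from 2495 counts, where counting error alone is 2.0%, to 138692 counts per library. Upf1 itself was not lower in the cKO libraries, with 213 to 237 CPM (counts scaled by TMM factors to a common library size) in Ctrl and 244 to 258 in cKO early LPre-B cells, and 186 to 198 against 282 to 293 in sPre-B cells. The floxed part, exons 4 to 6, is a small part of the transcript, so this gene-level count does not check the deletion. Cd79a, of which the cKO mice carry Cre in 1 allele, was at 543 and 640 CPM in Ctrl and at 160 and 188 CPM in cKO early LPre-B cells, whereas Gas5, a noncoding snoRNA host known as an NMD target, was at 108 and 112 against 727 and 762. Igll1, of the surrogate light chain, marked the early LPre-B libraries at 213 to 338 CPM against 5.76 to 10.2 in sPre-B libraries, and Il2ra, which encodes CD25, marked the sPre-B libraries at 476 to 532 CPM against 18.6 to 53.6. Of the 5 early LPre-B markers listed, 4 were lower in sPre-B cells of Ctrl mice and 3 in those of cKO mice (edgeR adjusted P under 0.05), beside 31.1% of all genes in each. Il7r, the exception in both, had 460 and 625 CPM in early LPre-B and 558 and 635 CPM in sPre-B cells of Ctrl mice (not called), and was higher in cKO sPre-B cells, at 663 and 943 against 443 and 513 CPM. Kit was not called in cKO cells (edgeR adjusted P = 0.0536). The sum of these markers was 1191 to 1240 against 631 to 695 CPM in Ctrl but overlapped between the stages in cKO mice, at 910 to 1000 against 731 to 1026 CPM. All 5 sPre-B markers listed were higher in sPre-B cells of both genotypes, beside 29.1% and 31.6% of all genes. Between genotypes, 3 of these were lower and 1 higher in cKO early LPre-B cells, and 1 lower and 1 higher in cKO sPre-B cells. Of the 5 early LPre-B markers, 2 were lower in cKO early LPre-B and 2 higher in cKO sPre-B cells. Of all genes, 16.9% were lower and 14.5% higher in cKO early LPre-B cells, and 14.9% and 19.8% in cKO sPre-B cells. Their part in the Srsf values was not tested. Xist had 304 and 151 counts in replicate 2 of the 2 Ctrl groups and 290740 to 513937 counts in the other 6 libraries, and 4 Y-linked genes had 19733 and 28205 counts against at most 34, so these 2 libraries came from male and the others from female mice. The Ctrl replicates, being of different sex, thus came from separate animals. Every cKO library was female, so sex was not balanced between the genotypes. Fits without replicate 2 of both Ctrl groups, given below, hold female libraries only. The study describes its replicates as biological, but the labels do not tie libraries to animals, so for the cKO replicates P values may measure only the spread between libraries.

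In early LPre-B cells, the question was which Srsf genes differ when Upf1 is deleted, and the family split. Srsf3, Srsf11, Srsf10 and Srsf4 were higher in cKO cells, by 1.31- to 1.82-fold, while Srsf1 and Srsf5 were lower, by 1.39- and 1.31-fold. Srsf2, Srsf6, Srsf7 and Srsf9 did not pass the test. The test was edgeR's quasi-likelihood F test, P values were adjusted over all 17700 genes by Benjamini-Hochberg, and a gene was called at an adjusted P under 0.05. Of all genes tested, 14.5% were called higher and 16.9% lower, 31.3% in all, beside 4, 2 and 6 of the 10 genes. The median Log2FC was 0.16 over the 10 genes and -0.06 over all genes.

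**Figure D1:**
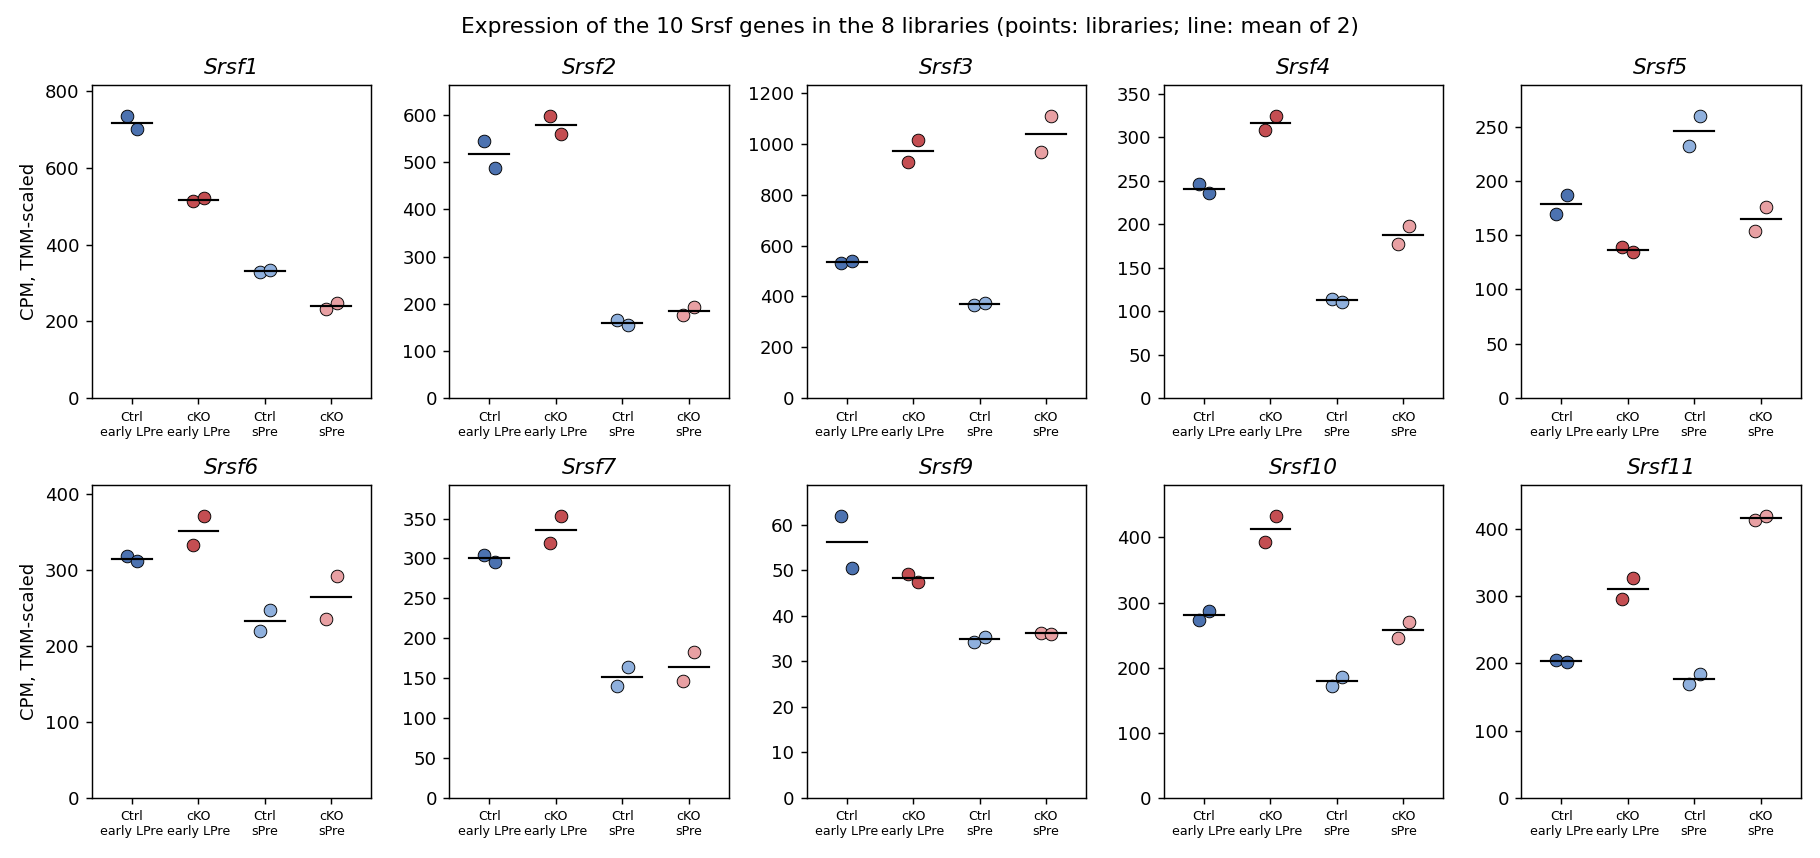
Expression of each Srsf gene in CPM scaled by TMM factors (y axis, from 0) in the 4 groups (x axis), with a point for each library and a line at the mean of the 2 libraries. Srsf3 and Srsf11 stand higher in cKO than in Ctrl libraries at both stages, Srsf1 and Srsf5 stand lower, and Srsf2 differs mainly between stages.

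Srsf3 (Entrez 20383, chr17:29032628-29043373, plus strand), the smallest SR protein and an adaptor for mRNA export, had 532 and 539 CPM in the Ctrl libraries and 929 and 1017 CPM in the cKO libraries. The groups were far apart compared with the replicates, with a Log2FC of 0.86 ± 0.13 (SE, n = 2 per group, edgeR adjusted P = 0.00157). Of all genes tested, 9.97% had a higher Log2FC. Srsf11 (Entrez 69207, chr3:158010473-158036639, minus strand), an arginine/serine-rich factor known as p54, had 205 and 202 CPM in Ctrl and 295 and 327 CPM in cKO cells. It was higher with a Log2FC of 0.61 ± 0.10 (edgeR adjusted P = 0.00247). Srsf10 (Entrez 14105, chr4:135855747-135869908, plus strand), known as a splicing repressor when it is dephosphorylated, had 274 and 287 CPM in Ctrl and 393 and 433 CPM in cKO cells. Its Log2FC was 0.56 ± 0.10 (edgeR adjusted P = 0.00461), and it was the only gene of the 10 with no annotated NMD transcript. Srsf4 (Entrez 57317, chr4:131873617-131901706, plus strand), among the larger SR proteins, had 246 and 236 CPM in Ctrl and 308 and 324 CPM in cKO cells, a Log2FC of 0.39 ± 0.10 (edgeR adjusted P = 0.0144).

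Srsf1 (Entrez 110809, chr11:88047373-88053755, plus strand), the prototype of the SR proteins, differed in the other direction. It had 734 and 701 CPM in Ctrl and 514 and 520 CPM in cKO early LPre-B cells, a Log2FC of -0.47 ± 0.10 (edgeR adjusted P = 0.00935). Srsf5 (Entrez 20384, chr12:80945504-80950507, plus strand), known as SRp40, had 170 and 187 CPM in Ctrl and 139 and 135 CPM in cKO cells, a Log2FC of -0.39 ± 0.11 (edgeR adjusted P = 0.0259). For both genes all cKO libraries lay below all Ctrl libraries, and for each of the 10 genes the libraries of the 2 groups did not overlap, as for 66.3% of all genes tested.

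The other 4 genes had intervals that included 0. Srsf2 (Entrez 20382, chr11:116849901-116853094, minus strand), known as SC35, had 546 and 489 CPM in Ctrl and 598 and 560 CPM in cKO early LPre-B cells, and the 95% interval of its Log2FC ran from -0.09 to 0.41. Its exons overlap those of Mettl23 and Mfsd11 on the opposite strand. The study gives unstranded for the alignment and names no strand setting for the counting. If the counting was unstranded too, reads there cannot be assigned to either gene. Both were themselves higher in cKO early LPre-B cells, Mettl23 with a Log2FC of 0.30 (edgeR adjusted P = 0.0404) at levels of 29.0 to 38.3 CPM, and Mfsd11 with a Log2FC of 0.60 (edgeR adjusted P = 0.00403) at 14.3 to 22.7 CPM. Srsf6 (Entrez 67996, chr2:162931528-162937121, plus strand), known as SRp55, had 319 and 312 CPM in Ctrl and 333 and 371 CPM in cKO cells, with an interval from -0.13 to 0.45. Srsf7 (Entrez 225027, chr17:80200080-80207307, minus strand), a relative of Srsf3 that also carries a zinc knuckle, had 305 and 295 CPM against 319 and 353 CPM, with an interval from -0.14 to 0.47. Srsf9 (Entrez 108014, chr5:115327177-115333080, plus strand), the least counted of the 10, had 62.0 and 50.5 CPM in Ctrl and 49.2 and 47.4 CPM in cKO cells, with an interval from -0.46 to 0.02.

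The calls of Srsf3, Srsf10 and Srsf11 held in every alternative fit of this comparison. Srsf1 lost its call without cKO early LPre replicate 1 (adjusted P = 0.0663) or replicate 2 (adjusted P = 0.0515), as did Srsf4 (0.0514 and 0.0811, edgeR). Srsf5 was not called when any of the 4 libraries compared was left out (edgeR adjusted P = 0.0541 and 0.183 without Ctrl replicates 1 and 2, 0.100 and 0.121 without cKO replicates 1 and 2), without both Ctrl replicate 2 libraries (0.157), in a fit of those 4 libraries alone (0.0551) or with scaling by library totals alone (0.190). That last scaling moved the median Log2FC of all genes from -0.06 to 0.11 and the share of higher calls from 46.2% to 69.1%, and under it Srsf2 was called higher, at 0.34.

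In sPre-B cells the same question gave calls for 6 genes again, in the same directions. Srsf3 was 2.81-fold, Srsf11 2.35-fold, Srsf4 1.67-fold and Srsf10 1.44-fold higher in cKO cells, and Srsf1 was 1.39-fold and Srsf5 1.49-fold lower. Of all genes tested, 19.8% were called higher, 14.9% lower and 34.7% in all. The median Log2FC was 0.19 over the 10 genes and 0.01 over all genes.

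Srsf3 had 365 and 374 CPM in the Ctrl and 969 and 1109 CPM in the cKO sPre-B libraries. With a Log2FC of 1.49 ± 0.13 (edgeR adjusted P = 0.000102) it made the largest difference of the 10 genes, and 6.67% of all genes tested had a higher Log2FC. Srsf11 had 169 and 185 CPM in Ctrl and 412 and 419 CPM in cKO cells, a Log2FC of 1.23 ± 0.10 (edgeR adjusted P = 7.79e-05). For both genes the lowest cKO library was above 2 times the highest Ctrl library.

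Srsf4 had 114 and 111 CPM in Ctrl and 177 and 198 CPM in cKO sPre-B cells, a Log2FC of 0.74 ± 0.10 (edgeR adjusted P = 0.00069). A noncoding gene on the opposite strand, Gm12992, overlaps its exons by up to 1532 bases and had 24 to 48 counts per library. If the counting was unstranded, reads in the shared part cannot be assigned to either gene. Srsf10 had 172 and 186 CPM against 246 and 270 CPM, a Log2FC of 0.53 ± 0.10 (edgeR adjusted P = 0.00529), close to its value in early LPre-B cells.

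Srsf1 had 329 and 335 CPM in Ctrl and 231 and 247 CPM in cKO sPre-B cells. Its Log2FC was again -0.47 ± 0.10 (edgeR adjusted P = 0.00824). Srsf5 had 232 and 260 CPM in Ctrl and 153 and 176 CPM in cKO cells, a Log2FC of -0.58 ± 0.11 (edgeR adjusted P = 0.00398). Among the uncalled genes, the intervals of the Log2FC ran from -0.04 to 0.46 for Srsf2, from -0.11 to 0.47 for Srsf6, from -0.19 to 0.42 for Srsf7 and from -0.19 to 0.30 for Srsf9. The Ctrl and cKO libraries overlapped for Srsf6 and Srsf7 only, whereas 70.8% of all genes tested did not overlap. Srsf1 lost its call without cKO sPre replicate 1 (edgeR adjusted P = 0.0809), and the other 5 calls held in every alternative.

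**Figure D2:**
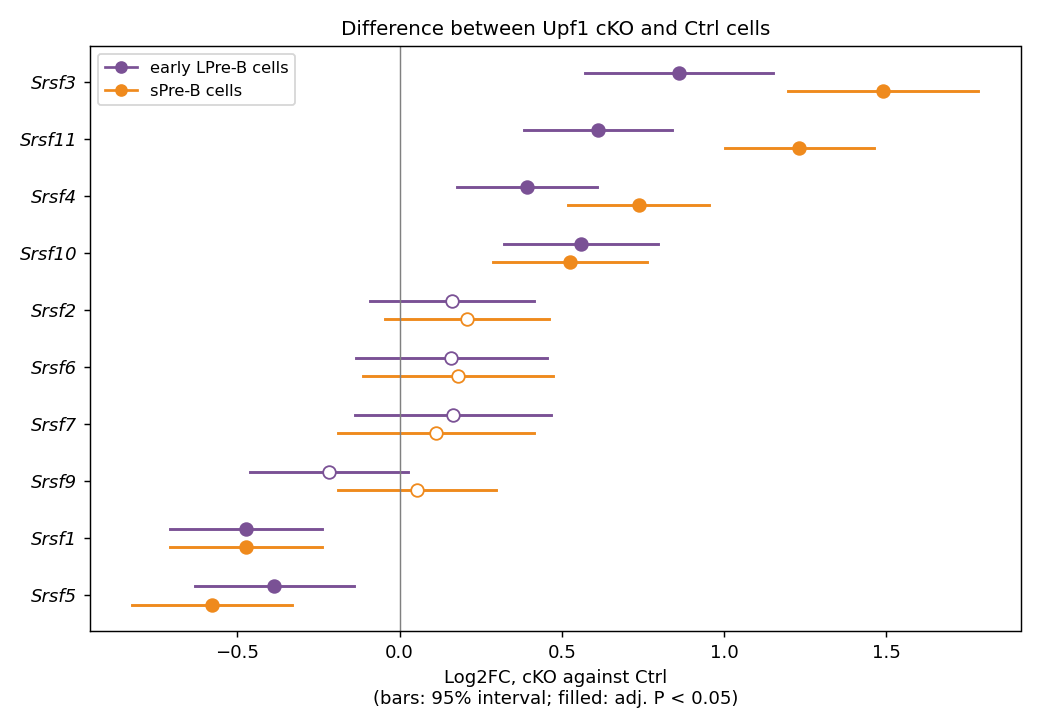
Log2FC of cKO against Ctrl (x axis) for each gene (y axis) in early LPre-B and sPre-B cells, with bars for the 95% interval and filled points for adjusted P under 0.05. The points of 4 genes lie above 0 and those of 2 genes below 0, filled at both stages, and Srsf3 and Srsf11 lie further from 0 in sPre-B cells.

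Whether the differences between genotypes varied in size between the stages was tested as the interaction of stage and genotype. Srsf11 was the only gene of the 10 past the threshold, with a cKO effect larger by a Log2FC of 0.62 ± 0.14 in sPre-B cells (edgeR adjusted P = 0.0472). Srsf3 had a difference of 0.63 ± 0.18 (edgeR adjusted P = 0.0884) and Srsf4 of 0.34 ± 0.13 (edgeR adjusted P = 0.191). Srsf1 had a difference of -0.00044 with a 95% interval from -0.33 to 0.33. Of all genes tested, 4.24% were called, 2.64% with a larger value in sPre-B cells and 1.6% with a smaller value. The Srsf11 call was lost when any of the 8 libraries was left out, with Log2FC values from 0.48 to 0.69 and edgeR adjusted P values from 0.089 to 0.175. It was also lost with median-ratio factors (0.58, adjusted P = 0.0536) and with library totals alone (0.51, adjusted P = 0.081). Srsf3 was called under 3 of the alternatives, namely the likelihood-ratio test (edgeR adjusted P = 0.0362), DESeq2 (adjusted P = 0.0074) and a replicate block within genotype (edgeR adjusted P = 0.015). Under library totals alone the share of interaction calls with a larger value in sPre-B cells went from 62.3% to 40.8%.

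The summed level of the 10 genes was 3297 and 3392 CPM in Ctrl and 3876 and 4088 CPM in cKO early LPre-B cells, and 1941 and 2050 against 2783 and 3122 CPM in sPre-B cells. The make-up of this sum shifted with genotype. Srsf3 took 15.7% and 16.3% of the counts of the 10 genes in the early LPre-B libraries of Ctrl mice, compared with 24.0% and 24.9% in those of cKO mice. In sPre-B cells it went from 18.3% and 18.8% to 34.8% and 35.5%. Srsf1 went from 21.3% and 21.6% to 12.7% and 13.3% in early LPre-B cells and from 16.3% and 17.0% to 7.92% and 8.31% in sPre-B cells. Within a library, where no scaling enters, there were 0.724 and 0.769 Srsf3 counts for each Srsf1 count in early LPre-B cells of Ctrl mice, and 1.81 and 1.95 in those of cKO mice. In sPre-B cells the ratio was 1.11 and 1.12 in Ctrl and 4.19 and 4.48 in cKO libraries. The ratio of Srsf5 to Srsf4 moved the other way, from 0.691 and 0.794 to 0.415 and 0.450 in early LPre-B cells and from 2.04 and 2.34 to 0.868 and 0.889 in sPre-B cells. With 2 libraries against 2 an exact permutation test of such a ratio cannot go below P = 0.333, and none was made.

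**Figure D3:**
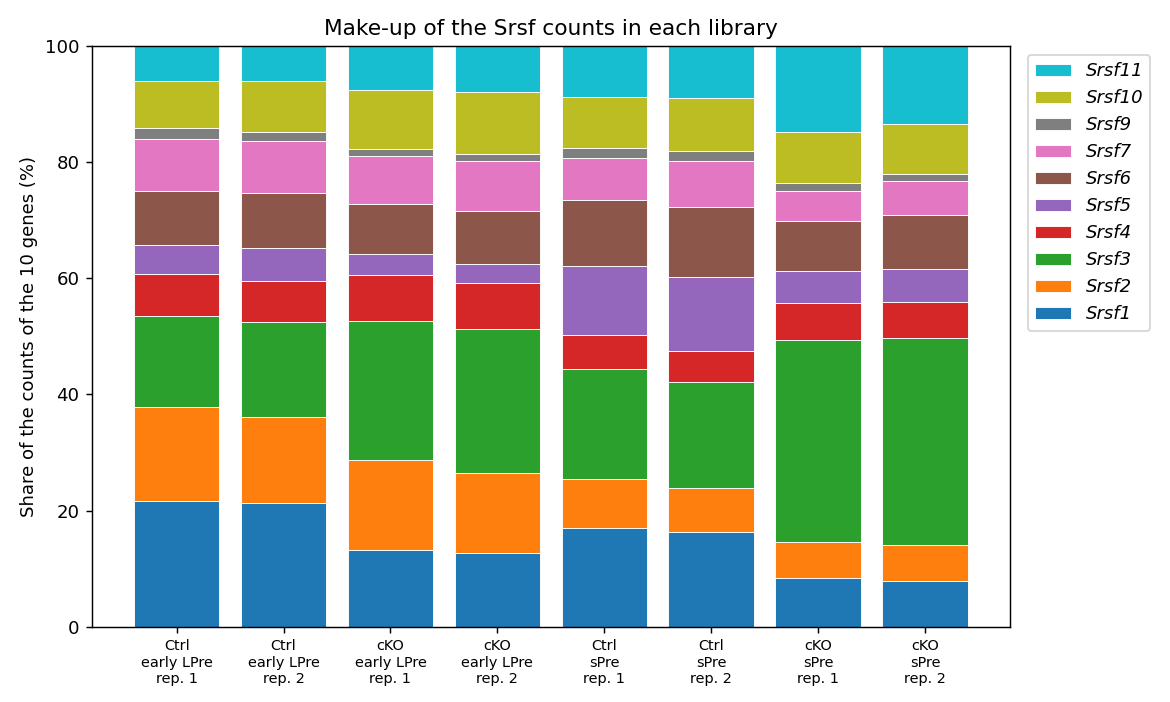
Share of the counts of the 10 Srsf genes that each gene took (y axis, percent) in each of the 8 libraries (x axis), stacked to 100%. The Srsf3 share is 15.7% and 16.3% in Ctrl and 24.0% and 24.9% in cKO early LPre-B libraries. In sPre-B libraries it is 18.8% and 18.3% in Ctrl and 34.8% and 35.5% in cKO.

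Most of the family was lower in sPre-B than in early LPre-B cells, which asks how the genes change along normal development. In Ctrl cells 8 of the 10 genes fell and Srsf5 rose, against 31.1% of all genes lower and 29.1% higher, 60.2% in all. The median Log2FC was -0.67 over the 10 genes and 0.02 over all genes. Srsf2 fell the most, from 489 and 546 to 154 and 166 CPM, a Log2FC of -1.69 ± 0.11 (edgeR adjusted P = 5.6e-06). Srsf1 fell from 701 and 734 to 329 and 335 CPM, a Log2FC of -1.11 ± 0.10 (edgeR adjusted P = 3e-05), and Srsf4 fell by 1.10 on the log2 scale (edgeR adjusted P = 2.09e-05). The libraries of the stages did not overlap for these genes, nor for 80.8% of all genes tested.

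Smaller falls were those of Srsf7 (-0.98), Srsf9 (-0.69), Srsf10 (-0.65), Srsf3 (-0.53) and Srsf6 (-0.44), with edgeR adjusted P between 0.000264 and 0.0173. Srsf5 went up from 170 and 187 to 232 and 260 CPM, a Log2FC of 0.46 ± 0.11 (edgeR adjusted P = 0.00552). Srsf11 had 202 and 205 CPM in early LPre-B and 169 and 185 CPM in sPre-B cells and did not pass the test (-0.20, edgeR adjusted P = 0.108), though it was called with a replicate block within genotype (edgeR adjusted P = 0.0464). Srsf6 lost its call without Ctrl early LPre replicate 1 (edgeR adjusted P = 0.0937) or replicate 2 (0.0777), without Ctrl sPre replicate 1 (0.152) and with library totals alone (0.130). With both Ctrl replicate 2 libraries left out, Srsf3 (edgeR adjusted P = 0.0553) and Srsf6 (0.0732) were not called. Library totals alone moved the median Log2FC of all genes to 0.22 and the share of higher calls from 48.4% to 59.0%.

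**Figure D4:**
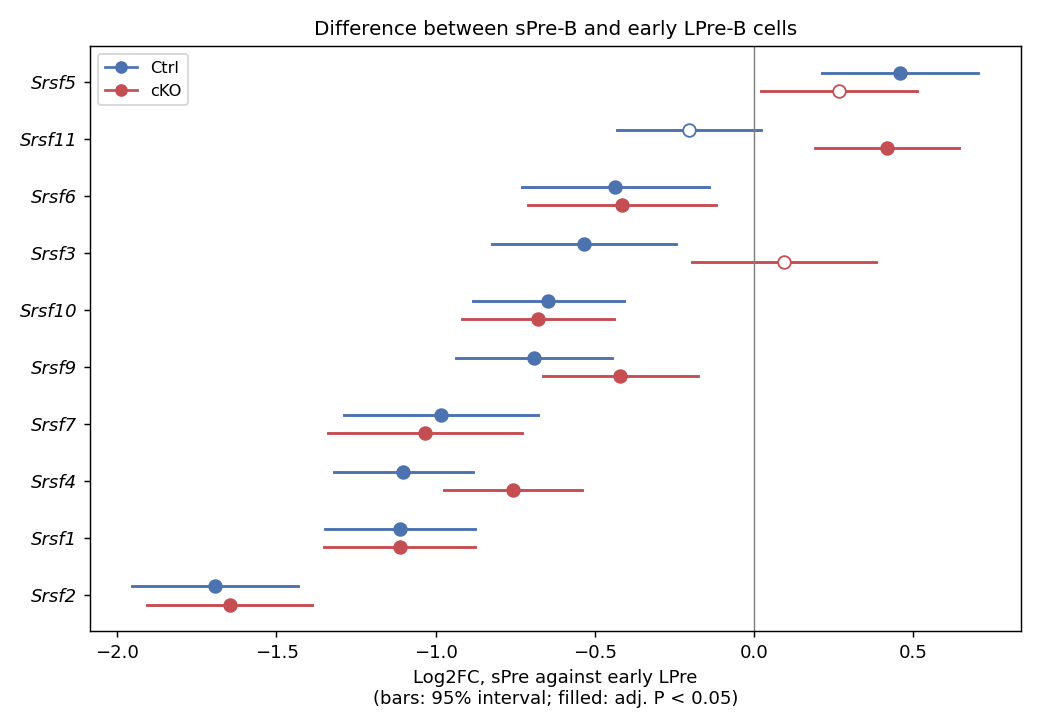
Log2FC of sPre-B against early LPre-B cells (x axis) for each gene (y axis) in Ctrl and cKO mice, with bars for the 95% interval and filled points for adjusted P under 0.05. Srsf2, Srsf1 and Srsf7 lie at almost the same value in both genotypes, while Srsf3, Srsf4 and Srsf11 lie further to the right in cKO cells.

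In cKO cells 7 genes fell between the stages and Srsf11 rose, against 31.1% of all genes lower, 31.6% higher and 62.6% in all. The median Log2FC was -0.55 over the 10 genes and 0.05 over all genes. Srsf2 (-1.65), Srsf1 (-1.11) and Srsf7 (-1.03) fell by amounts close to those in Ctrl cells. Srsf4 fell by 0.76, Srsf10 by 0.68, Srsf9 by 0.42 and Srsf6 by 0.41 on the log2 scale. Srsf11 went from 295 and 327 to 412 and 419 CPM, a Log2FC of 0.42 ± 0.10 (edgeR adjusted P = 0.00568). Srsf3 had 929 and 1017 CPM in early LPre-B and 969 and 1109 CPM in sPre-B cells, so that the libraries of the stages overlapped (0.09, edgeR adjusted P = 0.536), whereas 83.1% of all genes tested did not overlap. Srsf5 missed the threshold (0.27, edgeR adjusted P = 0.0559) and was called under 6 of the alternatives. Among them were a replicate block (edgeR adjusted P = 0.0332), a replicate block within genotype (0.0188) and the fit without cKO sPre replicate 1 (Log2FC 0.36). Srsf11 lost its call without cKO early LPre replicate 1 (edgeR adjusted P = 0.0561), and Srsf6 without cKO early LPre replicate 2 (0.115) or cKO sPre replicate 1 (0.156). The stage comparisons in Ctrl and cKO share no library, but the genotype and stage comparisons use the same 8 libraries.

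Cell cycle genes moved with the stages. Of 18 proliferation genes, such as Mki67 and Top2a, all 18 fell from early LPre-B to sPre-B cells in both genotypes, beside 31.1% of all genes, and their summed level was 14419 to 14680 CPM in Ctrl and 9904 to 10341 CPM in cKO early LPre-B cells, against 1136 to 1994 and 1948 to 2261 CPM in sPre-B cells. In early LPre-B cells 4 of them were lower in cKO cells, beside 16.9% of all genes, and in sPre-B cells 5 were higher, beside 19.8%. Their part in the Srsf changes was not tested, and in such sorted pools fewer dividing cells and less RNA per cell cannot be told apart. The 7 myeloid markers summed to 111 to 134 CPM in Ctrl and 50.0 to 55.6 in cKO early LPre-B libraries, and to 304 to 355 against 210 to 243 in sPre-B libraries. Itgam alone made most of each sum. It was at 87.1 and 97.4 CPM in Ctrl and 30.4 and 41.2 CPM in cKO early LPre-B libraries. In sPre-B libraries Itgam was at 228 and 262 against 179 and 176 CPM. T cell markers summed to at most 1.5 CPM in any library. Of the 4 dendritic and NK cell markers, Itgax made nearly all of the sum, at 63.2 and 114 CPM in Ctrl and 332 and 376 CPM in cKO sPre-B libraries, while Siglech stayed under 1 CPM in each library. The part of these cells in the Srsf values was not tested.

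Of 24 other SR and SR-like factors listed, 21 were tested, and 4 were higher and 2 lower in cKO early LPre-B cells, beside 14.5% and 16.9% of all genes. In cKO sPre-B cells 6 were higher and 4 lower, beside 19.8% and 14.9% of all genes. The median Log2FC of the list was -0.025 and -0.062 at the 2 stages, against -0.063 and 0.013 over all genes. Its genes went both ways, from -0.39 to 1.29 in early LPre-B and from -0.64 to 1.33 in sPre-B cells, which a median does not show. Tra2b, an SR-like activator whose gene also has an annotated poison exon, was at 375 and 328 CPM in Ctrl and 580 and 612 CPM in cKO early LPre-B cells (Log2FC 0.76, edgeR adjusted P = 0.00152), and at 165 and 158 against 247 and 273 CPM in sPre-B cells (0.68). Its paralog Tra2a, whose gene has an annotated poison exon too, did not pass the test in early LPre-B cells (0.23). In cKO sPre-B cells Tra2a was higher (0.40). Luc7l, a U1 snRNP-associated factor, had the largest difference of the list, 1.29 in early LPre-B and 1.33 in sPre-B cells, followed in early LPre-B cells by Tra2b and by Rbm39 (0.61, and 0.47 in sPre-B cells), a U2AF-like factor. Scaf11 (-0.39) and Scaf1 (-0.28) were lower in cKO early LPre-B cells, and Rsrp1 (-0.64), Srrm2 (-0.52) and Pnn (-0.47) in cKO sPre-B cells. From early LPre-B to sPre-B cells 7 of the 21 fell in each genotype, beside 31.1% of all genes, while 4 rose in Ctrl and 1 in cKO cells, beside 29.1% and 31.6%.

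SR proteins are phosphorylated by the SRPK kinases in the cytoplasm and the CLK kinases in the nucleus, and are carried back into the nucleus by transportin 3. Of 17 genes for such kinases, phosphatases and transport factors, 1 was higher and 5 were lower in cKO early LPre-B cells, and 1 was higher and 3 were lower in cKO sPre-B cells. These 6 and 4 calls stand beside 31.3% and 34.7% of all genes called, and the median Log2FC of the list was 0.032 and -0.12. The 4 Clk genes had Log2FC values between genotypes from -0.37 (Clk1, sPre-B) to 0.33 (Clk4, early LPre-B) and did not pass the test, with edgeR adjusted P of at least 0.0969. They rose from early LPre-B to sPre-B cells, by 0.61 (Clk3) to 1.19 (Clk1) in Ctrl and by 0.45 (Clk2) to 1.03 (Clk1) in cKO cells, opposite to most Srsf genes. Srpk1 fell with the stage, from 106 and 100 to 43.3 and 43.2 CPM in Ctrl cells. Srpk3 was lower in cKO cells at both stages (-0.67 and -1.13), at 9.6 to 16.8 CPM in early LPre-B and 27.2 to 72.7 CPM in sPre-B libraries, and Srpk2 was higher in cKO sPre-B cells (0.47). Ppp1cc (-0.61) and Dyrk1a (-0.57) were lower and Cdk11b (0.42) was higher in cKO early LPre-B cells.

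Among the partners that SR proteins recruit are the U1 and U2 snRNP and U2AF proteins. Of 18 genes for these and other spliceosome proteins, 15 fell from early LPre-B to sPre-B cells in Ctrl and 15 in cKO mice. That stands beside 31.1% of all genes in each, and the median Log2FC of the list was -0.62 and -0.57. Examples were Sf3a1 (-1.28 and -1.07) and U2af1 (-1.12 and -1.11). Between genotypes, 2 were higher and 3 lower in early LPre-B cells and 3 higher and 1 lower in sPre-B cells, 5 and 4 calls beside 31.3% and 34.7% of all genes. Sf3b3 was higher in cKO cells at both stages (0.54 and 0.55), and Sf3b1, the U2 component that contacts the branch site, was higher in cKO sPre-B cells (0.66), at 1208 and 1347 against 806 and 816 CPM. The 4 listed NMD target genes, which the study picked and which are therefore no independent evidence, were higher in cKO early LPre-B cells, Gas5 by 2.76 and Smg5 by 1.06 on the log2 scale, and 3 of them were higher in cKO sPre-B cells. The fourth, Gadd45b, had a Log2FC of -0.33 there (edgeR adjusted P = 0.0529), with both cKO libraries below both Ctrl libraries.

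Genes with an annotated NMD transcript had a larger share called higher in cKO cells. Outside the 10 Srsf genes, 25.2% of the 3871 tested protein-coding genes with such a transcript were higher in cKO early LPre-B cells, and 12.5% of the 10384 genes without. In sPre-B cells the shares were 29.3% and 18.3%. The shares called lower, with and without such a transcript, were 12.8% and 19.3% in early LPre-B and 12.1% and 16.9% in sPre-B cells. These shares are descriptions without a test, and the sets were not matched for expression level. Among the 9 Srsf genes with an annotated NMD transcript, Srsf3, Srsf4 and Srsf11 were higher at both stages, Srsf2, Srsf6, Srsf7 and Srsf9 were not called at either, and Srsf1 and Srsf5 were lower at both. The 6 genes with an extra exon inside the coding region, whose sequences are in part given above, thus included the 3 that were higher and 3 that were not called. The Srsf3 and Srsf7 exons, at 456 and 460 bases and in the same place between exons 3 and 4, belonged to genes with Log2FC values of 1.49 and 0.11 in sPre-B cells.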

How the data were processed

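The authors depleted rRNA, made directional libraries (MGIEasy), used Trim Galore for trimming, HISAT2 for alignment to mm10 (paired-end, unstranded) and featureCounts for counting per gene. Tool versions are not given in the sources used here. The deposited values are raw counts per Entrez gene, with totals of 68516857 to 160426338 per library, and all 8 columns were used. Symbols came from RefSeq (GRCm38.p6), which left 1904 of 27179 genes unnamed.

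edgeR 4.0.16 in R 4.3.3 was used on these counts. Genes were filtered by group (filterByExpr), scaled by TMM factors (0.862 to 1.09) and fitted in a model with 1 mean per group over all 8 libraries (common biological coefficient of variation 0.174). The 4 comparisons and the stage by genotype interaction were tested by quasi-likelihood F tests (two-sided), Benjamini-Hochberg adjusted over 17700 genes, with a threshold of 0.05. The study used edgeR without naming the test. SEs were derived from the Log2FC and F, and counting error is only part of them. The procedure was tested on simulated counts. Poison exons were taken from NMD transcripts of GENCODE M21, with overlaps counted on either strand.

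The 10 genes and the gene lists were chosen with earlier results of these data known. Named from each list were called genes, up to 3 rises and 3 falls per comparison, and the Tra2 and Clk genes, though not all are printed. Mki67, Top2a, marker genes and genes overlapping a member were named as examples after their values were seen. Alternatives were the likelihood-ratio test, DESeq2 1.42.0, 3 other scalings, no expression filter, leaving out immunoglobulin genes, fitting only the 4 libraries compared, blocks for the replicate number, and leaving out each library or both Ctrl replicate 2 libraries. No protein sequences were used.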

Additional observations from a re-analysis of the deposited data

Results flagged for a closer look

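Srsf11 differed between the stages in its response to Upf1 deletion. Its cKO effect was larger by a Log2FC of 0.62 in sPre-B than in early LPre-B cells (edgeR quasi-likelihood interaction test, adjusted P = 0.0472). Both cKO libraries were above both Ctrl libraries at each stage, so the difference is one of size and not of direction. The Srsf3 difference was of similar size (0.63) but was not called (edgeR adjusted P = 0.0884). Leaving out any library ended the Srsf11 call, as did median-ratio factors or library totals alone. The cause was not tested.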

How the results depend on the processing

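Of 470 values of single genes under the 10 alternatives that kept all libraries of a comparison, 449 kept their direction and side of the threshold, 5 lost a call, 10 gained one and 6 changed sign. Of 450 values with libraries left out, 401 were kept, 27 lost a call, 1 gained one and 21 changed sign. Every change of sign was in a value that was not called. Among the alternatives with all libraries these were interaction values of Srsf6 with DESeq2 (-0.023), median-ratio factors (-0.020), upper-quartile factors (-0.0075) and library totals alone (-0.094), of Srsf2 with library totals alone (-0.070) and of Srsf1 without immunoglobulin genes (0.0026). The number of genes called for the interaction, 1 in the fit reported, was 2 with the likelihood-ratio test, 2 with DESeq2, and 0 with median-ratio factors or library totals alone (edgeR), where 2 genes each had an unadjusted P under 0.05. With libraries left out it was 0 in each fit, with 2 or 3 genes at an unadjusted P under 0.05. The number called between genotypes in early LPre-B cells was 3 to 6. Changes of sign with libraries left out came in ranges from -0.057 to 0.27 for Srsf7 and from -0.0072 to 0.059 for Srsf9 between genotypes in sPre-B cells, from -0.0083 to 0.19 for Srsf3 between stages in cKO cells, and for the interaction from -0.11 to 0.046 for Srsf1, from -0.11 to 0.11 for Srsf2, from -0.15 to 0.17 for Srsf6, from -0.24 to 0.10 for Srsf7 and from -0.17 to 0.037 for Srsf10. Where a group was left with 1 library, it was assumed to vary like the others. The labels do not say that equal replicate numbers mark the same animal. Across 17700 genes the deviations of same-numbered libraries from their group means correlated at 0.15 between genotypes in early LPre-B cells, at 0.09 in sPre-B cells, and at 0.40 (Ctrl) and 0.25 (cKO) between stages. With a replicate block, 6 and 6 genes were called between genotypes, 9 and 9 between stages and 1 for the interaction. With the replicate block within genotype, 10 genes (Srsf11 gained, edgeR adjusted P = 0.0464) were called between stages in Ctrl, 9 (Srsf5 gained) in cKO, and 2 (Srsf3 gained) for the interaction. At this number of libraries the 95% interval of a Log2FC reached 0.22 to 0.31 to either side between groups and 0.31 to 0.43 for the interaction.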

Other observations

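Levels between the genes were compared as CPM per kb of the longest annotated coding transcript. In Ctrl early LPre-B cells Srsf2 stood highest at 272 ± 21.3 CPM per kb (SD, n = 2), ahead of Srsf3 at 204 ± 1.87, and Srsf9 stood lowest at 48.4 ± 7.01. Srsf1 and Srsf7, at 134 and 131 CPM per kb, overlapped in their libraries. In cKO early LPre-B cells Srsf3 came first at 372 ± 23.9 and Srsf1, at 96.4 ± 0.869, overlapped in its libraries with Srsf6 and Srsf11. In Ctrl sPre-B cells Srsf5 was highest at 157 ± 12.6, with Srsf3 next at 141 ± 2.4. In cKO sPre-B cells Srsf3 was highest at 397 ± 37.7 and Srsf11, seventh in Ctrl sPre-B cells at 57.0 ± 3.45, came after it at 134 ± 1.52. Srsf9 was the lowest gene in each of the 4 groups. No test was made of this order, which depends on the transcript taken for the length.

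The 5 genes outside the family whose log2 CPM followed the mean profile of the 10 genes most closely over the 8 libraries were Gm16062 (Pearson r = 0.999), Prpf4 (0.997), Ranbp17 (0.996), Pck2 (0.995) and Sigirr (0.993). The libraries fall into 4 groups, so these values describe mainly the group means, and no P was computed.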
